A study of Mus musculus with 14 samples.

Results

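The regions described here carried the repressive histone mark H3K27me3 in both wild-type (WT) libraries and in neither UTX knockout (KO) library. They were chosen by their island calls, found by merging the overlapping H3K27me3 islands of all 4 libraries on the autosomes, an island being a stretch that the authors' caller scored as enriched in 1 library. Of 23096 merged regions, 1630 (7.06%) had an island in both WT libraries and none in either KO library, and these are called WT-only regions below. The reverse pattern, both KO libraries and neither WT library, was met by 338 regions (1.46%). A further 6324 regions had an island in all 4 libraries and are called kept regions. Since the calls of these same 4 libraries chose the WT-only regions, their H3K27me3 levels are given as a description with no test.

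The series profiled chromatin of bone marrow progenitors from C57BL/6 mice by ChIP-seq, the sequencing of DNA that an antibody pulls down with a chromatin protein. Progenitors were obtained by depleting lineage-positive cells, so the libraries hold a mixture of stem and progenitor cells. The 2 genotypes are labelled UTX WT and UTX KO, with no allele, Cre driver, sex or age in the sources used here, and both are on the C57BL/6 background. Each genotype had 2 H3K27me3 and 2 H3K27ac libraries, and WT cells also had 2 libraries for UTX itself and 1 IgG library, titled as the control of a BCOR precipitation, as background. Nothing in the labels says whether libraries of a group came from separate animals, so every p-value measures only the spread between these libraries, which may be technical.

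H3K27me3 is laid down by Polycomb repressive complex 2, and it marks silent genes, above all the regulators of other lineages. UTX, encoded by Kdm6a on the X chromosome, can remove this mark, and it is also a subunit of the COMPASS-like complexes that accompany H3K27 acetylation at enhancers. H3K27ac sits on the same lysine at active promoters and enhancers, and a single histone tail cannot carry both marks on that residue.

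The WT-only regions held promoters that differ in their content of CG, shown here by those in 2 sets of regions. The first 5 windows lie in the WT-only regions with the most UTX reads, and the last 4 lie in the strongest WT-only regions without a UTX or H3K27ac island. All are RefSeq windows of the GRCm38.p6 assembly (the assembly of mm10) from 250 bases before to 50 bases after the annotated start, written 5′ to 3′ in lower case, with capitals marking each CG dinucleotide, the substrate of CpG methylation.
Rasgrp2 (chr19:6399625-6399924, + strand, 40 CG): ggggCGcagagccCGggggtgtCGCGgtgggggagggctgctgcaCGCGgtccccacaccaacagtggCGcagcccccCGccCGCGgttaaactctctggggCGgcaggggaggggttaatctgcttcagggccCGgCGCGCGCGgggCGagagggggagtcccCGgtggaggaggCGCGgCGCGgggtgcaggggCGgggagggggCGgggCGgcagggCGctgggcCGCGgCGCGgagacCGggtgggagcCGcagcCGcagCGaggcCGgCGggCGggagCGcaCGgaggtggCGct
Hes7 (chr11:69120203-69120502, + strand, 14 CG): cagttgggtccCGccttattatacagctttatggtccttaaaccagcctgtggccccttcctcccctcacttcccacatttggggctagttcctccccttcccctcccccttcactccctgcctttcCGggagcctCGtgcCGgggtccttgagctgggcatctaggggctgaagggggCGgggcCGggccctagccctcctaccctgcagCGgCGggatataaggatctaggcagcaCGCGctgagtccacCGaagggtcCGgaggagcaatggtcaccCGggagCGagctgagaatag
Ppp1r18 (chr17:35866365-35866664, + strand, 27 CG): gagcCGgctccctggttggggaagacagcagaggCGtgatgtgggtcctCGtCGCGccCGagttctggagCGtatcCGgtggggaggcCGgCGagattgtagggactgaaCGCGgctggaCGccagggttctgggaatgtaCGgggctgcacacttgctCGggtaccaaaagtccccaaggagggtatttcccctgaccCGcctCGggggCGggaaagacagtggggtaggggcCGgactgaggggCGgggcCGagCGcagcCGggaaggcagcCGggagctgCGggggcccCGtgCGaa
Hivep2 (chr10:13966129-13966428, + strand, 35 CG): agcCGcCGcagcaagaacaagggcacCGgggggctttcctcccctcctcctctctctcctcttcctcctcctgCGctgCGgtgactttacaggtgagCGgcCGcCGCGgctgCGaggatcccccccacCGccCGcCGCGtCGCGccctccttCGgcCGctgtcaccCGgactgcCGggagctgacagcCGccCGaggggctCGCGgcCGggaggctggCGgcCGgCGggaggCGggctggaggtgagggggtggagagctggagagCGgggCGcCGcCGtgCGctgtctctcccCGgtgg
Satb1 (chr17:51812135-51812434, - strand, 13 CG): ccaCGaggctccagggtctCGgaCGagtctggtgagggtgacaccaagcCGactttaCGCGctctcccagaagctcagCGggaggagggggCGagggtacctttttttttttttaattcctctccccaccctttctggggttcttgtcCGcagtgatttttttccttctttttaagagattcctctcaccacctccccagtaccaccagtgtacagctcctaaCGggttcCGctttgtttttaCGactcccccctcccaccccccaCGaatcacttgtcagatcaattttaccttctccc
Tmem61 (chr4:106506286-106506585, - strand, 3 CG): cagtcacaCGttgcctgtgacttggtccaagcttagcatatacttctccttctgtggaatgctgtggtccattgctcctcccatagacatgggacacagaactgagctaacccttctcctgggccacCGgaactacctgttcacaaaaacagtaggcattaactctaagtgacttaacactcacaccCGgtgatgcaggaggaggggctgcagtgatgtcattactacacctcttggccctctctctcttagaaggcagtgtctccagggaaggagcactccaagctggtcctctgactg
Myh6 (chr14:54966558-54966857, - strand, 2 CG): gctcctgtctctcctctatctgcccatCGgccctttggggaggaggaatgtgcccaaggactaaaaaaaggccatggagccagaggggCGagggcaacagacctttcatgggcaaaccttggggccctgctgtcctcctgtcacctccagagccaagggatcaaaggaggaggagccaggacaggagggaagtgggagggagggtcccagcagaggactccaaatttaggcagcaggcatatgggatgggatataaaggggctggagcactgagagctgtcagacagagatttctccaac
Rab3b (chr4:108878820-108879119, + strand, 8 CG): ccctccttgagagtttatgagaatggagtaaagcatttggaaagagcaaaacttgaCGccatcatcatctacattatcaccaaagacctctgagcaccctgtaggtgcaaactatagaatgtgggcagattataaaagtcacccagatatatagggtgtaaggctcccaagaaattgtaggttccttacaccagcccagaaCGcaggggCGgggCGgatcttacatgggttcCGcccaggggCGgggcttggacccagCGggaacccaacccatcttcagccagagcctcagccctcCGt
Gpx2 (chr12:76795505-76795804, - strand, 0 CG): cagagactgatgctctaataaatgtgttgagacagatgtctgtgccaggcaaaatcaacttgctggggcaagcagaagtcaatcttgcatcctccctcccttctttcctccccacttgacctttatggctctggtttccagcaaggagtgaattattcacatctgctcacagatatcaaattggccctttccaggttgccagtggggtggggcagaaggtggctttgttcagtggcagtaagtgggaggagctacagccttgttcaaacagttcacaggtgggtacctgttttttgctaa

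The first 5 windows hold from 13 to 40 CG and the last 4 from 0 to 8. Of the printed windows, those of Rasgrp2, Ppp1r18 and Hivep2 are the densest, and those of Hes7 and Satb1 lie nearer to the last 4. Some of these genes have further windows inside WT-only regions, and those of Satb1 ranged from 7 to 45 CG. Rasgrp2 encodes an activator of the Rap GTPase in platelets, Ppp1r18 a phosphatase-targeting protein and Hivep2 a zinc finger protein that binds kappa-B-like sites. Hes7 encodes a Notch target repressor and Satb1 a chromatin organizer of lymphoid cells. Myh6 encodes the cardiac alpha-myosin heavy chain, Rab3b a GTPase of vesicle release and Gpx2 a glutathione peroxidase of the gut.

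Over all promoters inside WT-only regions the CG count was also higher where H3K27ac was found. Chromosome 18, with 48 of the WT-only and 744 of the merged regions, was not used for promoters, start sites or microRNAs. On the other autosomes the promoter table gave 219 windows of 182 genes that lay whole inside a WT-only region, with a median of 15 CG per 300 bases. The median was 18 in the 3262 windows inside kept regions and 13 over all 21262 windows of the table. Where the WT-only region also met an H3K27ac island of any library, the median was 22 and 72 of 122 windows (59.0%) had 20 or more CG. Where it met none, the median was 7, and 8 of 97 windows (8.25%) had 20 or more. In the 52 windows whose WT-only region met UTX islands of both libraries the median reached 28.5. It was 25 in the 428 windows of kept regions that met UTX islands of both libraries, so a high count there was not particular to WT-only regions. Neighbouring windows of 1 gene share sequence, so these counts carry no test.

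**Figure D1:**
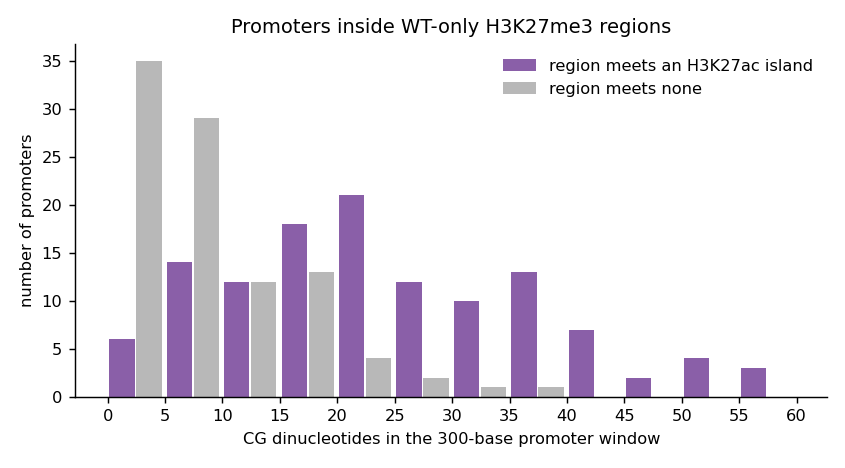
Number of promoter windows inside WT-only H3K27me3 regions by their count of CG dinucleotides (x axis, bins of 5), for regions that met an H3K27ac island of any library (purple, 122 windows) and regions that met none (grey, 97 windows). The grey bars are highest below 5 CG, and the purple bars spread from 0 to above 50 with most windows at 15 or more.

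The ETS core CCGGAAG, searched on both strands, was present in 16 of the 219 windows (7.31%), against 11.6% of all windows in the table and 3.56% of those in kept regions. The GATA core AGATAA, also on both strands, was present in 10 windows (4.57%), against 9.65% of all windows. These are matches of letters in windows of equal length and are no evidence of binding.

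Of 919 microRNA hairpins of the RefSeq table on the autosomes used, 10 met a WT-only region. They include the hairpin of miR-208b, which lies in the gene of the cardiac beta-myosin heavy chain Myh7, and that of miR-152, which lies in Copz2. The hairpins in the 4 highest of these regions by mean WT level were those of miR-208b, miR-5135, miR-8104 and miR-152. One mature RNA of each is printed to show that the 4 have no shared seed (bases 2 to 8, in capitals).
mmu-miR-208b-3p (chr14:54975710-54975731, - strand): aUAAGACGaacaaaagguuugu
mmu-miR-5135 (chr12:76533143-76533166, - strand): aGGUCUAGguggcaagggcguccu
mmu-miR-8104 (chr10:122679336-122679357, + strand): cAGGAUGAgguggagugcagcg
mmu-miR-152-3p (chr11:96850439-96850459, + strand): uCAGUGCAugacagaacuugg

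The WT-only regions were narrow and weak beside the kept ones. Their median width was 5200 bp (quartiles 3800 and 7000 bp, range 200 to 20000 bp), against 10400 bp for kept regions and 4800 bp for KO-only regions. Over all merged regions it was 4600 bp. Levels are given as rpm, the reads of a region's islands per 1000000 island reads of the library. The median level was 26.2 rpm in WT replicate 1 and 19.95 rpm in WT replicate 2. The mean of the 2 WT libraries had a median of 24.1 rpm over WT-only regions (quartiles 19.1 and 30.3, range 6.15 to 97.5 rpm) and of 69.7 rpm over kept regions. KO-only regions had medians of 28.8 and 27.1 rpm in the KO libraries. These levels sum reads over a region and so include its width. Per kb of island the WT medians were 6.28 and 6.62 rpm in WT-only regions and 8.83 and 10.8 rpm in kept regions. WT replicate 1 was the higher library in 1159 WT-only regions (71.1%), and across WT-only regions the levels of the 2 WT libraries had a Spearman correlation of 0.28, as a description.

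The share of regions that lacked any KO island fell with their WT level. Among the 1188 regions with both WT islands and a mean below 20 rpm, 481 (40.5%) had no KO island. The share was 39.6% from 20 to 30 rpm, 20.9% from 30 to 40 rpm, 7.42% from 40 to 60 rpm and 1.18% from 60 to 100 rpm. None of the 2122 regions at 100 rpm or more lacked a KO island. Read the other way, the share of regions with both KO islands that had no WT island fell from 16.4% below 20 rpm to 0.0437% at 100 rpm or more. In each of the 5 lower ranges the WT-only share was above the KO-only share.

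**Figure D2:**
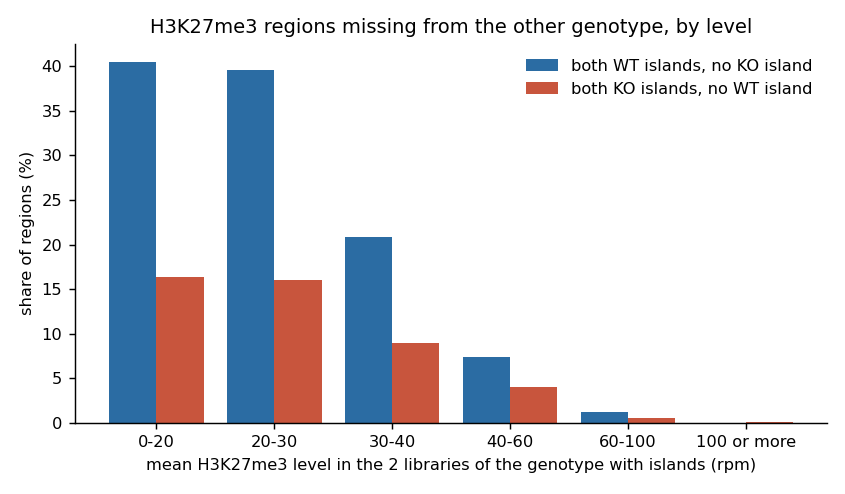
Share (%) of H3K27me3 regions with no island in the other genotype, by the mean level (rpm) in the 2 libraries of the genotype that has the islands, for WT (blue) and KO (red). Both shares are highest below 30 rpm (40.5% and 39.6% for WT, 16.4% and 16.0% for KO) and near 0 at 100 rpm or more.

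The WT-only call therefore has to be read beside the level at which islands were called in each library. The 5th percentile of island levels was 13.9 and 9.77 rpm in the WT libraries and 14.9 and 17.2 rpm in the KO libraries, and the island lists held 18854 and 20417 islands in WT against 15754 and 14674 in KO. In 899 WT-only regions (55.2%) both WT levels were above the higher KO 5th percentile. In 65 (3.99%) both were above the higher KO median of 39.9 rpm. A region with no island has no deposited read count, so a KO level under the calling limit and a KO level of 0 cannot be told apart. When only islands of at least 20 rpm counted, 735 regions were WT-only and 401 KO-only. At 30 rpm the counts were 310 and 384, and at 40 rpm 194 and 296. With the strongest 12214 autosomal islands of each library they were 706 and 634. The excess of WT-only over KO-only regions was thus present for islands as deposited and at 20 rpm, was small with lists of equal length, and was reversed at 30 and 40 rpm.

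Beside the rule's edge, the weakest WT-only region was a 200 bp stretch 7.56 kb from Vav1, a signalling adaptor of blood cells, with 17 and 15 reads in the WT libraries. The next weakest lay in Il15ra, encoding an interleukin 15 receptor chain (18 and 22 reads), and near Nat1, Rusf1 and Nell1. Just outside, a region nearest to G6pd2 had 40 and 19 WT reads and was kept out by 22 reads in KO replicate 1. Oprk1, Prdm2, Mettl15 and Mup7 were nearest to the next 4, with 22 to 24 reads in KO replicate 1 and none in KO replicate 2.

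The strongest WT-only region covered 18400 bp at Cfap74 and Tmem52 (chr4:155457001-155475400, mm10), genes of a cilium protein and a transmembrane protein, with 114 rpm in WT replicate 1 and 80.6 rpm in WT replicate 2. The second, 9000 bp at the end of St14 (chr9:31127401-31136400), which encodes the membrane protease matriptase, had 67.8 and 87.1 rpm. Tmem61 had 79.5 and 71.7 rpm over 18200 bp, and Dcbld1 75.5 and 65.2 rpm over 10800 bp. In these 4 regions both WT libraries were above 39.9 rpm, the higher median of the KO libraries' islands.

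Several other strong WT-only regions rested mostly on 1 library. The 20000 bp region at Gpr17, Lims2 and Myo7b, the widest of all, had 106 rpm in WT replicate 1 and 24.0 in WT replicate 2. The region in the body of Atp2b2, a plasma membrane calcium pump gene, had 102 and 33.8 rpm, and the intergenic one 36.9 kb from Abhd5 had 103 and 38.7 rpm. At Iqgap3 and Ttc24 WT replicate 2 was the higher library, with 52.5 and 88.4 rpm, both above the higher KO median of 39.9 rpm.

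Several genes at the strongest WT-only regions are known from tissues other than blood. Celf4 and Rab3b, with neuronal roles in splicing and vesicle release, had 93.3 and 60.7 rpm and 83.1 and 47.6 rpm. The cardiac myosin pair Myh6 and Myh7 (chr14:54963001-54977200) had 75.5 and 57.8 rpm over the 14200 bp that also hold the miR-208b hairpin, and the olfactory receptor gene Olfr284 had 83.1 and 51.3 rpm. Spocd1 had 68.2 and 67.2 rpm, the closest pair of libraries among the 15 strongest, Cnpy1 had 86.8 and 41.9 rpm, and the region 9.35 kb from Gpat2 had 94.8 and 31.4 rpm. Among the 10 widest, the others lay 24.4 kb from the zinc and manganese transporter gene Slc30a10, 185 kb from the endoderm regulator gene Foxa2, and in the body of the integrin gene Itga11.

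WT-only regions lay away from gene ends more often than kept regions did. A gene end here is 2 kb either side of either annotated end of a protein-coding gene. Of the WT-only regions 400 (24.5%) met a gene end, 509 (31.2%) lay in a gene body without meeting an end and 721 (44.2%) were intergenic, at a median 28.9 kb from the nearest gene. Gene ends were met by 59.5% of kept regions, 24.6% of KO-only regions and 28.4% of all merged regions. On the autosomes other than chromosome 18, an annotated start site lay inside 189 of 1582 WT-only regions (11.9%), against 42.4% of kept regions. Kept regions are wider, as given above, and the part of width in these shares was not tested.

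A KO island lay within 10 kb of 734 WT-only regions (45.0%). A kept region lay within 10 kb of 431 WT-only regions (26.4%), near the 23.7% of KO-only regions. Another WT-only region lay within 20 kb of 302 (18.5%). The 466 kept regions within 10 kb of a WT-only region had a median log2 KO over WT level of -0.01, beside 0.11 over all kept regions. By chromosome, WT-only regions made up from 5.01% of merged regions on chromosome 17 to 8.45% on chromosome 12.

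Some long genes collected several WT-only regions. Of 751 genes whose body met at least 1, 102 met 2 or more and 27 met 3 or more. Cacna1c, the 610 kb gene (chr6:118587240-119197384) of the L-type calcium channel pore subunit, held 11 of its 40 merged regions as WT-only, together 83.2 kb, against 4 kept. Their levels ranged from 15.3 to 60.1 rpm in WT replicate 1 and from 8.55 to 37.5 rpm in WT replicate 2, and none met an H3K27ac island. Asic2, the gene of an acid-sensing ion channel, held 6 of 49, with 21.9 to 43.7 rpm and 11.8 to 20.4 rpm. The regulator gene Satb1 differed in that both of its merged regions were WT-only.

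Over all 21883 protein-coding genes 459 (2.10%) had a WT-only region at an end and 4595 (21.0%) a kept one, and the gene lists below are read beside these shares. The classical Polycomb targets mostly had kept regions. All 39 Hox genes and all 60 developmental homeobox and Pax genes had a kept region at an end, as did 45 of 47 Sox, Fox, T-box and GATA4 to GATA6 genes (95.7%), 17 of 21 neurogenic bHLH genes (81.0%) and 52 of 66 Wnt, Fgf, Bmp and hedgehog ligand genes (78.8%). WT-only regions lay at the ends of 1 of the 60 (1.67%), Pax8, a regulator of thyroid and kidney (32.1 and 38.3 rpm), and of 1 of the 66 (1.52%), Wnt7b, with 38.3 and 15.1 rpm. None of the Hox, Sox, Fox, T-box, GATA4 to GATA6 or neurogenic bHLH genes had one. In lists of this size these counts are close to what the share over all genes gives, so they do not set the lists apart.

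In the lists of genes of differentiated cells the share ranged from 0.668% to 3.79%, beside the 2.10% of all genes. Of 132 voltage-gated ion channel genes 5 (3.79%) had a WT-only region at an end, among them the potassium channel genes Kcna4, Kcnk6, Kcnmb2 and Kcnq5. A further 17 had one only in the body, and 86 had a kept region at an end. Of 96 neurotransmitter receptor genes Glra1 and Grik1 had one (2.08%), and of 92 cadherins and protocadherins Pcdhga7 and Pcdhgb4 (2.17%), which share 1 region. Of 1497 olfactory, vomeronasal and taste receptor genes 10 had a WT-only region at an end (0.668%) and 17 a kept one (1.14%). The highest of these was the region of Olfr284 given above.

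In the blood cell lists, which hold from 16 to 30 genes, at most 2 genes had a WT-only region at an end. Of 16 megakaryocyte and platelet genes these were Itgb3 and Thbs1 (12.5%), and of 19 B cell genes Blk (5.26%), with Ebf1 and Pax5 met in the body. Fli1 was the 1 of 25 ETS family genes with a WT-only region at an end (4%), with Elf5 met in the body. None of the 30 erythroid, 28 granulocyte and monocyte, 21 stem cell, 22 T and NK cell or 24 PRC2, UTX and COMPASS genes had one at an end, nor did the 16 stromal and endothelial or 15 housekeeping genes. In lists this small 2.10% of the genes is less than 1 gene, so neither the shares above nor the counts of 0 set a list apart.

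UTX occupied few WT-only regions. Islands of both UTX libraries were met by 73 (4.48%), beside 9.19% of kept regions, 4.44% of KO-only regions and 4.20% of all merged regions. An island of either library was met by 152 (9.33%), beside 26.3%, 16.0% and 12.2% of those classes. Of the 73, 62 lay at gene ends (84.9%), and all 73 also met an H3K27ac island. Of the 581 kept regions with islands of both UTX libraries, 78.8% lay at gene ends and 71.4% met an H3K27ac island. The IgG library had an island in 11 of the 1630 WT-only regions (0.675%) and in none of the 73. The UTX libraries held 816567 and 1834418 reads in islands and the IgG library 154029, so the shallower IgG library limits this background.

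The UTX-occupied WT-only region with the most UTX reads lay at Pygm and Rasgrp2 (chr19:6395601-6403400), with 143 and 343 UTX reads and H3K27me3 levels of 42.6 and 23.2 rpm. At the end of Fli1, an ETS factor needed in megakaryocytes and stem cells, the region chr9:32540201-32548800 had 162 and 311 UTX reads and 41.6 and 60.3 rpm of H3K27me3. The others of the leading 10 were Cpeb2, Hes7, Fzd5, Nrm with Ppp1r18, Hivep2, Itgb3, Mms19 with Ubtd1, and Satb1, with 17.8 to 51.0 rpm of H3K27me3 as a WT mean. Fzd5 encodes a Wnt receptor and Itgb3 the beta subunit of the platelet fibrinogen receptor. The promoters of Hes7, Ppp1r18, Hivep2 and Satb1 are among those printed above.

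H3K27ac was measured in libraries that did not choose the regions, and its summed level at WT-only regions was higher in both KO libraries. The H3K27ac islands at WT-only regions summed to 5995 rpm in WT replicate 1, 5356 in WT replicate 2, 9215 in KO replicate 1 and 9797 in KO replicate 2. Both KO libraries were above both WT libraries, with means of 5676 ± 452 rpm in WT and 9506 ± 412 rpm in KO (SD, n = 2 each), a ratio of 1.67. A two-sided exact permutation test over the 4 libraries gave p = 0.333, the smallest value that 2 against 2 allows. The ratio was 1.02 over all merged H3K27me3 regions and 0.969 over kept regions.

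Much of that rise was in the length that islands covered. Inside WT-only regions H3K27ac islands covered 391 and 404 kb in WT and 560 and 529 kb in KO. Per kb of island the level was 7.33 and 6.35 rpm in WT and 7.47 and 7.86 rpm in KO, a ratio of the means of 1.12. With each island's reads scaled to the length inside the WT-only region, the ratio of the totals was 1.51.

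**Figure D3:**
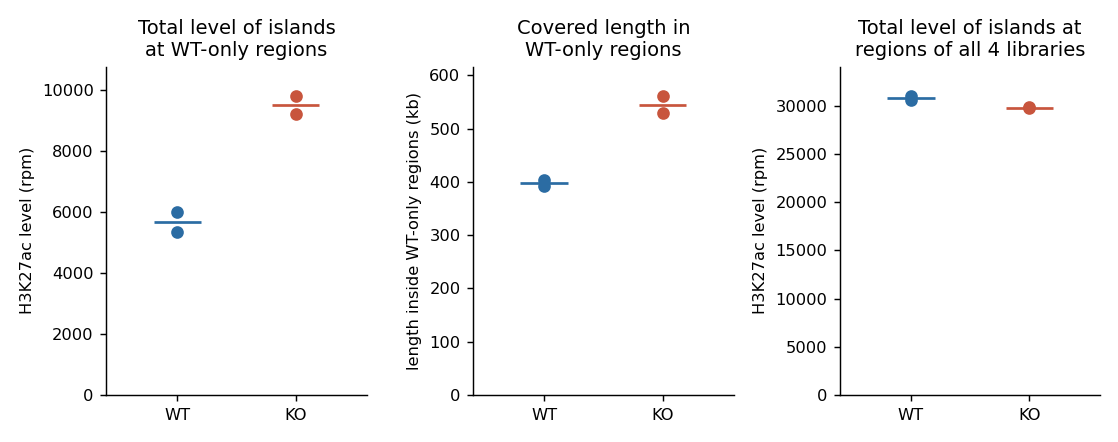
H3K27ac in each of the 4 libraries (points, with the mean of 2 libraries as a bar): summed level in rpm of islands at WT-only H3K27me3 regions, length in kb that islands cover inside them, and summed level at kept regions. Both KO libraries lie above both WT libraries in the first 2 panels (9215 and 9797 against 5995 and 5356 rpm), and the kept regions show 29764 and 29902 rpm in KO against 30985 and 30607 rpm in WT.

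An H3K27ac island of any library was met by 250 WT-only regions (15.3%), close to the 14.6% of all merged regions. The share was 23.5% of kept regions and 22.8% of KO-only regions. Islands were met at 175 and 179 WT-only regions in the WT libraries and at 214 and 205 in the KO libraries. Both KO libraries and neither WT library had one at 25 (1.53%, against 1.14% of all merged regions), and the reverse held at 7 (0.429%, against 1.54%). At the 338 KO-only H3K27me3 regions these counts were 0 and 18. Kept regions had 139 (2.198%) called in both KO libraries alone and 161 (2.55%) in both WT libraries alone. The KO-alone share of WT-only regions was thus above that of all merged regions but below that of kept regions.

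At those 25 regions H3K27me3 was called in WT alone and H3K27ac, inside the region, in KO alone. The calls concern the WT-only region itself, and at 6 of the 25 the KO islands belonged to a merged H3K27ac region that had islands of all 4 libraries, those of WT lying outside the WT-only region. The other 19 met no such region. Of these the highest by KO level was 31.7 kb from Cecr2, a gene of a chromatin remodelling factor, with no H3K27ac island in WT and 36.5 and 49.6 rpm in KO. Dcbld1, one of the strongest WT-only regions by H3K27me3, had 14.5 and 18.2 rpm of H3K27ac in the KO libraries. Ttll7, Hmgcll1 and Cox10 were at or nearest to 3 more, with KO means from 15.3 to 28.9 rpm.

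The 6 with a 4-library H3K27ac region lay at or nearest to Rtf1, Ugdh, Ralb, Tubgcp3, Ap1s1 and Pla2g7, the last of them chosen after its values were seen. Over the whole H3K27ac region, 3 of the 6 rose in KO by the edgeR test described below. Rtf1, a gene of a transcription elongation factor, had 46.8 and 54.4 rpm in KO and none in WT by islands touching the WT-only region. Over the whole H3K27ac region, of which 200 bp lay in the WT-only region, it had 51.5 and 48.3 CPM in WT and 49.2 and 56.2 in KO (CPM being counts over the tested regions per 1000000, scaled by edgeR). That log2 fold change was 0.08 with an edgeR adjusted p of 0.693 although WT had no island inside the WT-only region. Ap1s1 likewise had 15.997 and 14.6 CPM in WT and 14.5 and 16.8 in KO (log2 fold change 0.03), and Tubgcp3 had a log2 fold change of 0.78 with an edgeR adjusted p of 0.215, which became 0.0184 without WT replicate 2.

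Ralb, Ugdh and Pla2g7 were the 3 that rose. At Ralb, encoding a Ras-like GTPase, islands touching the WT-only region held 3.45 and 52.6 rpm in the KO libraries, while the whole H3K27ac region had 50.3 and 54.3 CPM in KO and 13.8 and 13.96 in WT. Ugdh had 27.9 and 28.9 CPM in WT and 40.1 and 40.7 in KO (log2 fold change 0.51, edgeR adjusted p 0.0431). Pla2g7 had 22.7 and 34.9 CPM in WT and 47.6 and 54.2 in KO (0.81, edgeR adjusted p 0.0326). Ugdh lost its call without any one library and with DESeq2 (adjusted p 0.076), and Pla2g7 when WT replicate 1 or KO replicate 2 was left out. Neither gene passed with counts divided by covered length.

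The 7 regions with both marks called in WT alone lay at or nearest to Cabp2, Galnt16, Cdc42ep2, Tmem260, Ankrd63 with Pak6, Gstt1 and Dpysl5. Here 3 met a 4-library H3K27ac region. Cabp2, a calcium-binding protein gene, had 97.7 and 100.3 CPM in WT and 100.4 and 101.2 in KO over that region (log2 fold change 0.02, edgeR adjusted p 0.862), although islands touching the WT-only region were called in WT alone. Ankrd63 with Pak6 did not pass either (-0.54, edgeR adjusted p 0.270), and Cdc42ep2 fell, as given below. The other 4 met no such region, and Galnt16 was the highest of them, with 20.4 and 21.2 rpm of H3K27ac in WT.

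For single regions, H3K27ac reads were compared by edgeR's quasi-likelihood test over the 18820 merged H3K27ac regions with an island in all 4 libraries, where 2258 (12%) were higher in KO and 2631 (14%) lower at a Benjamini-Hochberg adjusted p under 0.05. Of the 190 tested regions that met a WT-only H3K27me3 region, 79 (41.6%) rose in KO and 8 (4.21%) fell. Their median log2 fold change was 0.45, beside 0.00 over all tested regions, and 153 of the 190 (80.5%) were above 0. Tested regions that met a kept H3K27me3 region numbered 876, of which 135 rose and 169 fell. Those that met a KO-only H3K27me3 region numbered 55, of which 1 rose and 30 fell, with a median of -0.74. H3K27ac regions seen in fewer than 4 libraries could not enter these counts, and so 19 of the 25 and 4 of the 7 WT-only regions just described by presence are not in them.

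The direction was shared by WT-only regions of each kind, as counts with no test of their differences. At those with UTX in both libraries 37 of 76 tested H3K27ac regions rose and 3 fell, and at those with no UTX island 24 of 64 rose and 3 fell. At gene ends 65 of 147 rose and 5 fell, and away from them 14 of 43 rose and 3 fell. Among WT-only regions whose WT levels were both above 17.2 rpm, the higher KO 5th percentile, 61 of 129 rose and 4 fell. Some KO islands were called below that level.

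These changes were changes in reads per region, and island length moved with them. When each library's count was divided by the length its islands covered, 4 of the 190 rose and 0 fell by edgeR (42 had an unadjusted p under 0.05 in either direction), beside 79 rises and 259 falls over all 18820 tested, with a median of 0.09 beside -0.07 over all tested regions. Of the 28 named calls given below, those of Ikzf3 and Pik3c2a were the 2 that held on that scale. Leaving out each library in turn gave 50 to 59 rises and 3 to 7 falls, the fewest rises without WT replicate 2.

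**Figure D4:**
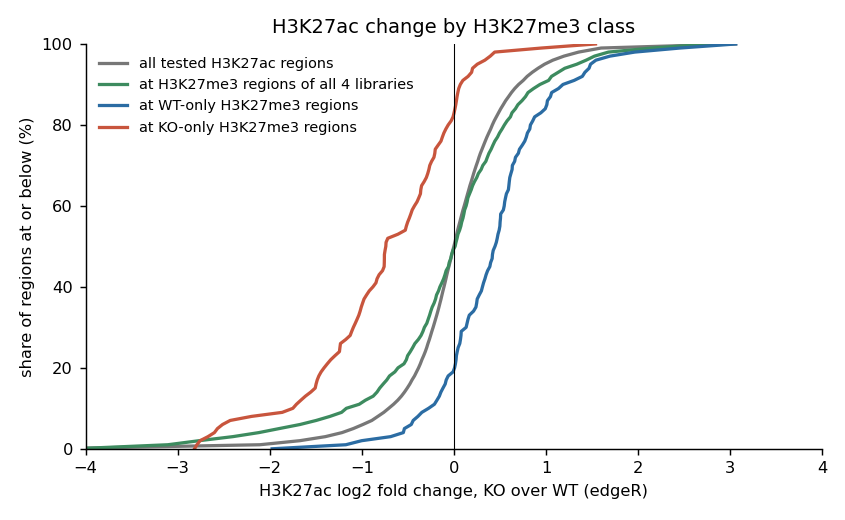
Share of tested H3K27ac regions (y axis, %) at or below each log2 fold change of KO over WT (x axis, edgeR), for all tested regions (grey) and those at kept (green), WT-only (blue) and KO-only (red) H3K27me3 regions. The blue curve lies to the right of the grey one with its median at 0.45, the red curve to the left with its median at -0.74, and the green curve crosses 50% near 0.

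The summed H3K27ac level of 7 lists of blood and stromal cell genes is given per library, beside housekeeping genes, as a description with no test. The H3K27ac level summed over islands at gene ends of the 19 B cell genes was 530 and 452 rpm in WT and 976 and 1321 rpm in KO, with Cr2 at 0 in every library. For 28 granulocyte and monocyte genes it was 1964 and 2166 rpm in WT and 3047 and 2606 in KO (Ly6c2 and Ly6g at 0), and for 22 T and NK cell genes 245 and 250 against 475 and 345 rpm, with Cd3e, Cd4 and Cd8a among 7 at 0. It was lower in KO for the 30 erythroid genes (4482 and 5201 against 1831 and 1927 rpm, Add2 and Ank1 at 0) and the 16 megakaryocyte and platelet genes (841 and 889.97 against 609 and 572 rpm, Gp1bb at 0). For the 21 stem cell genes, the defining list of the labelled progenitors, it was 1780 and 1665 rpm in WT and 1554 and 1215 in KO, with islands at 15 to 18 genes and Procr and Tek at 0. For 16 stromal and endothelial genes it was 184 and 298 against 613 and 628 rpm, with 9 of them at 0, including Cxcl12, Lepr, Cdh5 and Col1a1. Islands lay at 7 of the 16 genes in each WT library and at 5 in each KO library, so the higher sum was not shared across the list. For 15 housekeeping genes the level was 2045 and 2006 against 2038 and 2112 rpm. The part of such shifts in cell makeup in the H3K27ac and H3K27me3 differences at WT-only regions was not tested. In bulk samples, a change in the share of a cell type and a change of the mark per cell cannot be told apart.

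The largest rise at a WT-only region was at Slco4c1, an organic anion transporter gene, where the 2 WT libraries had 9.998 and 3.26 CPM and the 2 KO libraries 53.2 and 52.9 CPM. The log2 fold change was 3.06 ± 0.43 (SE), with an edgeR adjusted p of 0.00306. Ctcfl, the germline paralogue of the insulator protein gene Ctcf, had 6.82 and 9.94 CPM in WT and 62.9 and 63.3 in KO, a log2 fold change of 2.89. Elfn2, Nucb2 and Ralb followed with 2.40, 2.14 and 1.91. Parts of these H3K27ac regions lay outside the WT-only regions. The part inside was 3200 of 12200 bp at Slco4c1, 2000 of 13800 bp at Ctcfl and 4000 of 6400 bp at Elfn2. It was 4600 of 30600 bp at Nucb2 and 800 of 13400 bp at Ralb.

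Of the 10 largest rises, the one with the most reads was at Ikzf3, which encodes the lymphoid zinc finger factor Aiolos. Its H3K27ac region of 44800 bp, 6000 bp of which lay in a WT-only region, had 85.3 and 82.4 CPM in WT and 268 and 299.9 in KO, a log2 fold change of 1.76 ± 0.09 with an edgeR adjusted p of 0.000191. St14, the second strongest WT-only region by H3K27me3, had 15.4 and 11.99 CPM in WT and 41.1 and 45.2 in KO (log2 fold change 1.66), and its H3K27ac region lay whole inside the WT-only one. The cell cycle inhibitor gene Cdkn2c rose by 1.55 on the log2 scale, the lipid kinase gene Pik3c2a by 1.53 and the adhesion receptor gene Adgre5 by 1.49. In all 10 of these regions both KO libraries were above both WT libraries. The edgeR call on these same libraries chose the regions, so this separation is no further support.

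**Figure D5:**
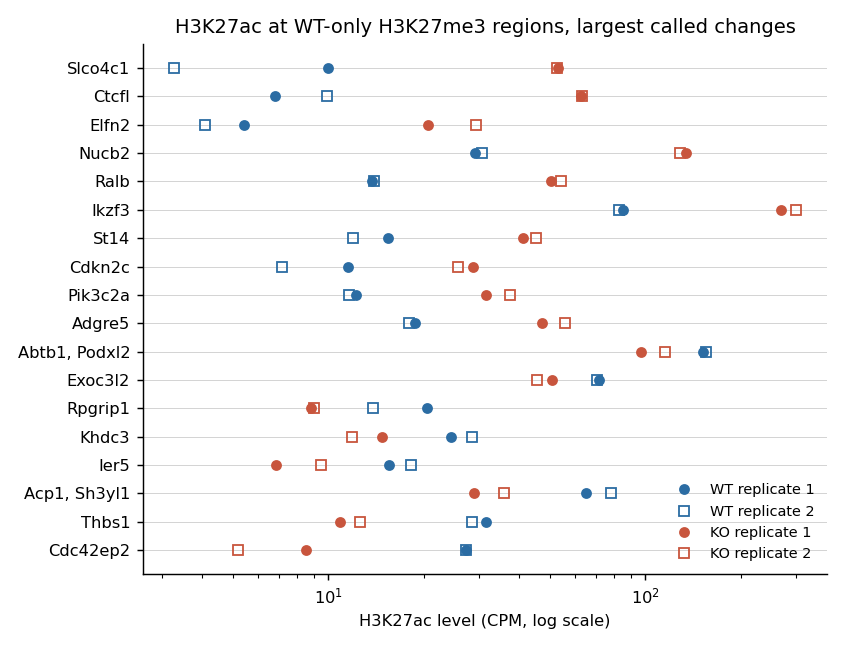
H3K27ac level (CPM, log scale) in each library for the 10 largest called rises and the 8 called falls at WT-only H3K27me3 regions, with WT in blue, KO in red, replicate 1 filled and replicate 2 open. The rows were chosen by the edgeR call on these libraries, which favours separated genotypes. Examples are Slco4c1 (3.26 and 9.998 CPM in WT against 52.9 and 53.2 in KO) and Cdc42ep2 (27.2 and 27.3 against 5.198 and 8.54 CPM).

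Of the UTX-occupied regions with the most UTX reads, Satb1 rose at both of its WT-only regions. The first went from 40.6 and 47.1 CPM to 82.4 and 72.96 CPM (log2 fold change 0.82, edgeR adjusted p 0.00449) and the second from 25.9 and 25.4 to 57.6 and 45.6 CPM (1.01, edgeR adjusted p 0.0054). Fli1 had 428 and 477 CPM in WT and 604 and 605 in KO over an H3K27ac region of 88200 bp, a log2 fold change of 0.42 with an edgeR adjusted p of 0.00919, which became 0.0541 without WT replicate 1. Of that H3K27ac region at Fli1, 6800 bp lay in a WT-only region. Pygm with Rasgrp2 (0.67), Cpeb2 (0.64), Hivep2 (0.54), Nrm with Ppp1r18 (0.48) and Mms19 with Ubtd1 (0.35) also rose.

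The last of these, Mms19 with Ubtd1, had an edgeR adjusted p of 0.04995 and lost its call without any one library. Hivep2 kept its call only when the library left out was WT replicate 1, and Nrm with Ppp1r18 lost its call without that same library. Hes7 had 73.99 and 84.5 CPM in WT and 97.2 and 102.6 in KO, and its log2 fold change of 0.33 did not pass (edgeR adjusted p 0.0581), though it did when libraries were scaled to total island reads (edgeR adjusted p 0.0262). Fzd5 (-0.44, edgeR adjusted p 0.124) and Itgb3 (-0.06, edgeR adjusted p 0.803) did not pass either.

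Of the listed genes, the potassium channel genes Kcnq5 and Kcnk6 rose, Kcnq5 from 42.2 and 31.4 to 96.5 and 104 CPM (log2 fold change 1.46) and Kcnk6 from 16.1 and 15.9 to 39.0 and 42.2 CPM (1.34). Kcna4, Kcnmb2, Pax8, Wnt7b, Glra1, Grik1, Blk and the 10 olfactory receptor genes had no H3K27ac island at their WT-only regions. 3 further UTX-occupied regions that rose are given here, chosen after their values were seen. Bhlhe40, a transcriptional repressor gene, had 45.6 and 31.7 CPM in WT and 100.6 and 89.2 in KO (1.31). Dtx4, a Notch pathway ligase gene, rose by 1.02 and Cd72, a B cell receptor inhibitor gene, by 1.14 on the log2 scale.

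The 8 falls were fewer and mostly smaller. Cdc42ep2, an effector of the GTPase Cdc42, had 27.3 and 27.2 CPM in WT and 8.54 and 5.198 in KO, a log2 fold change of -1.97 ± 0.28 with an edgeR adjusted p of 0.00318. Thbs1, encoding the platelet granule protein thrombospondin 1, had 31.5 and 28.4 CPM in WT and 10.9 and 12.6 in KO (-1.35), and its WT-only region met a UTX island in WT replicate 2 alone. Acp1 with Sh3yl1 fell by 1.15, Ier5 by 1.06, Khdc3 by 0.98, Rpgrip1 by 0.94, Exoc3l2 by 0.56 and Abtb1 with Podxl2 by 0.54 on the log2 scale. The falling H3K27ac region of Ier5 had 600 bp in the WT-only region. Another H3K27ac region, with 3400 bp in that same WT-only region, rose by 0.30 (edgeR adjusted p 0.0364).

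Cdc42ep2, Thbs1 and Acp1 with Sh3yl1 kept their calls with any 1 library left out, and the other 5 each lost theirs in 3 of the 4 cases. Ier5 and the region of Abtb1 with Podxl2 kept the call only when the library left out was KO replicate 2. Khdc3 and Exoc3l2 kept it only when that library was KO replicate 1, and Rpgrip1 only when it was WT replicate 2. Rpgrip1 also lost the call with DESeq2 (adjusted p 0.0504), as did Mms19 with Ubtd1 (adjusted p 0.117 with DESeq2). Per covered length Ralb, Kcnk6, Pygm with Rasgrp2, Satb1 at its second region, Cdc42ep2, Thbs1 and Ier5 changed sign, and none of those 7 values passed.

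Kdm6a itself could not check the genotype labels. Its gene (chrX:18160862-18279936) held no H3K27me3 island in any library, and the H3K27ac reads over it were 1840 and 1562 in WT and 2674 and 2059 in KO. H3K27ac over the gene says nothing of a deletion inside it, and UTX was profiled in WT alone. The other H3K27 demethylase gene, Kdm6b, had 108 and 98 H3K27me3 reads in WT and 104 and 80 in KO.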

How the data were processed

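The authors called enriched islands with SICER on mouse build mm10, per the submitters' processing notes; version, aligner, thresholds and control are not given in the sources used here. Each deposited file lists 1 library's islands with their counts, whole numbers of reads. H3K27me3 libraries held 2347442 to 2743508 reads in islands and H3K27ac libraries 9330823 to 15256696. Reads outside islands were not used here, and 3 further samples (2 inputs and an IgG) were not analysed here.

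Islands were merged where they overlapped by at least 1 bp (Python 3.11.15, pandas 2.3.3), and a region took the reads of every island it met. Genes, promoters and microRNAs came from RefSeq GRCm38.p6 tables. The gene table names no exons or introns, so these are not stated. The test of H3K27ac used edgeR 4.0.16 under R 4.3.3 (scaling by TMM, then glmQLFit, glmQLFTest, two-sided, Benjamini-Hochberg threshold 0.05) on regions with islands in all 4 libraries, with genotype as the only term. On simulated counts for the 18820 H3K27ac regions it recovered 83 of 100 regions changed 2-fold, 100 of 100 changed 4-fold, and called 15 of 18620 unchanged ones. The interval code was tested on simulated intervals.

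The regions, gene lists and tests were chosen with earlier results of these data known. Named genes were those at the 15 strongest and 10 widest WT-only regions, the 10 with the most UTX reads, up to 10 per direction called by edgeR or by presence of H3K27ac, listed genes with a WT-only region at an end, the 5 regions on each side of the rule's edge, Kdm6a and Kdm6b. One gene of these is not reported here. The lists were PRC2, UTX and COMPASS, Hox, developmental homeobox and Pax, Sox, Fox, T-box and GATA4 to GATA6, neurogenic bHLH, Wnt, Fgf, Bmp and hedgehog ligands, voltage-gated ion channels, neurotransmitter receptors, cadherins, chemosensory receptors, 7 cell type lists, the ETS family and housekeeping genes. Alternatives were DESeq2 1.42.0, scaling to total island reads, other island, gene end and read thresholds, a replicate block, counts per covered length and leaving out each library.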

Additional observations from a re-analysis of the deposited data

How the results depend on the processing

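The number of WT-only regions followed the islands taken. It was 793 with at least 50 reads per island and 706 with lists of equal length, where the median width was 6200 and 6400 bp and the median WT level 29.8 and 30.3 rpm. It was 735, 310 and 194 with islands of at least 20, 30 and 40 rpm, thresholds chosen after seeing the data. With 1 H3K27me3 library left out, 1 library defined its genotype: the number ranged from 2448 to 5971, the median width from 2600 to 5600 bp and the median WT level from 16.7 to 26.5 rpm, and the KO-only number from 647 to 2785. The share at gene ends was 21.6% with a 1 kb window, 31.3% with 5 kb, 15.3% around start sites only (with none used on chromosome 18) and 40.1% with all genes of the reference table. The share with UTX was 9.33% for either library and from 1.31% to 4.29% among the regions found without 1 library.

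For H3K27ac presence, leaving out 1 library gave 31 to 43 regions called in KO alone and 7 to 15 in WT alone. The edgeR counts of 79 rises and 8 falls became 4 and 0 per covered length, and 50 to 59 and 3 to 7 without 1 library. The lone library of a genotype is then assumed to vary like the other genotype's. DESeq2 gave 75 and 7 of 190, beside 11.2% and 13.0% over all tested regions. Total scaling gave 89 and 7 of 190, beside 14.8% and 11.8% over all tested regions, whose median was 0.07. Regions of at least 2 libraries gave 89 and 12 of 236, beside 11.6% and 18.4%. At least 50 reads gave 78 and 8 of 180, beside 12.2% and 14.1%. At WT-only regions above the KO island level 61 of 129 tested regions rose and 4 fell. At those of equal lists 47 of 97 rose and 3 fell. Both of these sets were chosen after seeing the data. Per covered length the log2 fold change was -0.45 at Ralb, -0.12 at Kcnk6, -0.26 at Pygm with Rasgrp2, -0.18 at Satb1, 0.12 at Cdc42ep2, 0.15 at Thbs1, 0.36 at Ier5 and -0.15 at Ugdh. Of 28 named calls, not counting Ugdh and Pla2g7, 2 kept their call per covered length, and 19 kept it without each of the 4 libraries in turn. The cause of these changes was not tested.

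Replicate numbers are not stated to pair libraries, and the deviations of same-numbered H3K27ac libraries had a correlation of 0.05. With the replicate block 82 regions rose and 9 fell, Hes7 passed (adjusted p 0.0412 by edgeR) and Mms19 with Ubtd1 did not. Island depth limits the H3K27me3 comparison: levels under the calling limit of a library are not known.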
